A study of Mus musculus with 7 samples.

Results

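The genes described here are B2m, which encodes beta-2 microglobulin, and 6 genes whose products resemble its partners or help to assemble them: the class I-like heavy chains Fcgrt, Mr1, Cd1d1 and Azgp1, and the loading factors Tapbpl and Pdia3. They were taken by gene symbol from the deposited count table, and all 7 were found among its 20343 genes. Expression was measured by RNA sequencing of polyadenylated RNA from the apex of the heart in 7 mice of the strain NSG-DRB1*0101, an immunodeficient NSG line carrying a human HLA-DR1 transgene. The 4 control mice received no cells, and the 3 transferred mice were given human CD4+ T cells and sampled 6 weeks later. All 7 mice share the strain background, the labels give no age or sex, and they do not say what the further codes in the identifiers of the transferred mice stand for. The analysed table covers chromosomes 1 to 7 and the first part of chromosome 8, so the classical class I heavy chains and the other genes of the major histocompatibility complex on chromosome 17 are not analysed here.

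Beta-2 microglobulin is the small light chain that class I heavy chains bind as they fold in the endoplasmic reticulum, and most heavy chains reach the cell surface only in its company. Classical class I molecules carry peptides to CD8+ T cells, whereas the class I-like chains have taken on other cargo. Interferons raise the transcription of B2m together with that of classical heavy chains in many cell types, through an interferon-stimulated response element and a nearby NF-kB site in the promoter. NSG mice lack their own T, B and natural killer cells, while nearly all nucleated cells of the heart, among them cardiomyocytes, endothelial cells, fibroblasts and myeloid cells, can express B2m.

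The B2m promoter is shown because both kinds of element can be read in it. The stretch runs from 170 to 41 bases before the transcription start, on the plus strand at chr2:122147517-122147646 of GRCm38.p6 (RefSeq). Capitals mark, in order, a match to the interferon response element core, GAAANNGAAA, at 139 to 130 bases before the start, then 2 further matches. These are a match to the NF-kB consensus at 126 to 117 bases and a CCAAT box at 53 to 49 bases, both read on the other strand. The NF-kB consensus is GGGRNNYYCC, where R is A or G, Y is C or T and N is any base.
B2m: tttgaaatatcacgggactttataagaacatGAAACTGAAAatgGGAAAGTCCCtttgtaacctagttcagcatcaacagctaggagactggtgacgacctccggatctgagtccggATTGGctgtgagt

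Promoter windows were matched for 5 of the 7 genes, B2m, Fcgrt, Mr1, Azgp1 and Pdia3. In the 250 bases before the start, searched on both strands, the interferon response element core was found for B2m and not for the other 4. Of 32851 RefSeq promoter windows of that length, 2.98% hold this core. The NF-kB consensus was likewise found in the B2m window alone among the 5, against 7.25% of all windows. The gamma-activated site, TTCNNNGAA, present in 7.02% of windows, was found in none of the 5. A CCAAT box, present in 33.8% of windows, was found for B2m, Pdia3 and Azgp1. A match describes the letters only.

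B2m (gene ID 12010, chromosome 2, 122147687 to 122153082, plus strand) stood at 355, 379, 389 and 445 CPM (counts relative to the heart's total, scaled between hearts by the trimmed mean of M values, TMM) in control hearts 1 to 4. In the transferred hearts it stood at 1556 CPM in heart 1, 703 CPM in heart 2 and 369 CPM in heart 3. Transferred hearts 1 and 2 lay above every control heart, at 3.97 and 1.79 times the control mean, and transferred heart 3 lay inside the control range, at 0.942 times. The group means were 392 ± 38.1 CPM (SD, n = 4) and 876 ± 612 CPM (SD, n = 3), so the spread between transferred hearts was of the same order as the difference.

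The log2 fold change of B2m was 1.16 with a standard error of 0.44 and a 95% interval from 0.11 to 2.21. Over all 7667 tested genes the adjusted p was 0.352 (edgeR quasi-likelihood test, Benjamini-Hochberg, unadjusted p = 0.0346), which is not past the threshold of 0.05. The value rests on single hearts. Without transferred heart 3 it was 1.53 (edgeR adjusted p = 0.0412), and without transferred heart 1 it was 0.45 (edgeR adjusted p = 0.403).

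The animals' identifiers have 2 forms, and the labels do not say what the difference means. Control heart 1 and transferred heart 1 carry a letter prefix, and B2m in that transferred heart was 4.39 times the level in that control heart. Among the 5 hearts with numbers alone the log2 fold change was 0.42 with a standard error of 0.26 (edgeR adjusted p = 0.521). With the form of the identifier as a covariate it was 0.91 (edgeR adjusted p = 0.413).

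The hearts also differed within the group. The SD of log2 CPM of B2m was 1.04 in the transferred group (n = 3) and 0.14 among controls (n = 4). Only 2.80% of tested genes varied more than B2m among the transferred hearts, whereas 57.8% varied more among the control hearts. For Fcgrt, Mr1, Cd1d1, Tapbpl and Pdia3 the corresponding share among the transferred hearts lay between 53.5% and 89.0%. The order of the transferred hearts, heart 1 above heart 2, heart 2 above all controls and heart 3 within the controls, was seen in 188 of 7667 tested genes (2.45%). This pattern was defined after the values of B2m were seen.

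**Figure D1:**
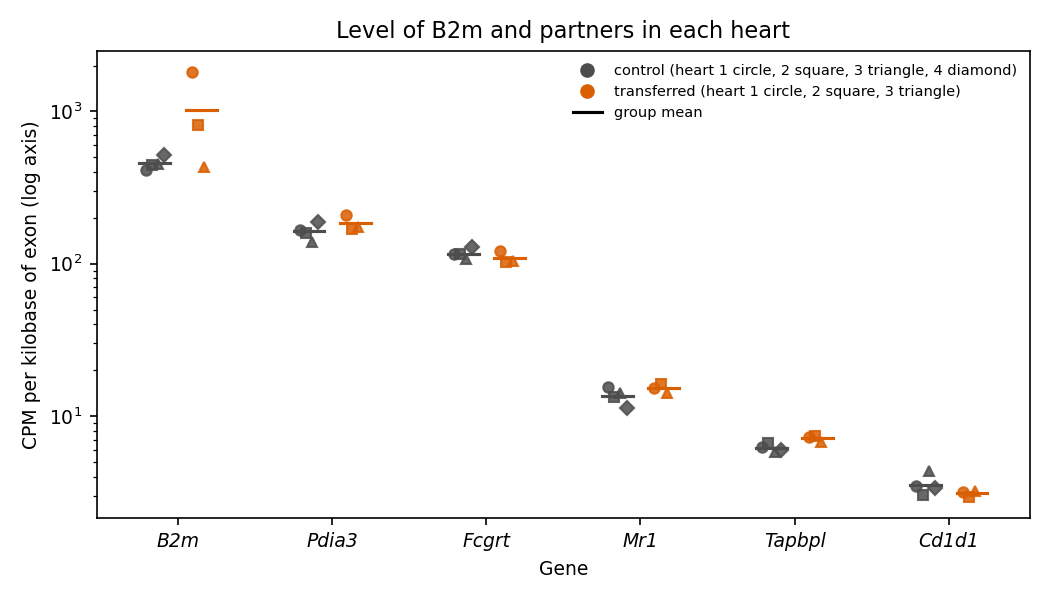
Level of each gene in each heart in CPM per kilobase of exon, on a log axis. Grey symbols are the 4 control hearts, orange symbols the 3 transferred hearts, and bars the group means. B2m spans 430 to 1814 in the transferred hearts, where each of the other 5 genes keeps a narrow range. Among the control hearts B2m is not the most variable, with an SD of log2 CPM of 0.14 beside 0.09 to 0.22 for the others. Azgp1 had no counts and is not drawn.

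Compared per length of exon, the order of the 7 genes was the same in all 7 hearts, and neighbours in that order did not overlap within either group. B2m came first, with 457 ± 44.5 CPM per kilobase in controls (SD, n = 4) and 1021 ± 713 after transfer (SD, n = 3). In rank by CPM per kilobase among the tested genes, B2m lay between place 144 and place 172 in control hearts, and at places 46, 101 and 160 in transferred hearts 1, 2 and 3. Pdia3 followed with 163 ± 20.6 (SD, n = 4) and 185 ± 22.0 (SD, n = 3) CPM per kilobase. Fcgrt came next with 117 ± 8.95 and 109 ± 9.68 CPM per kilobase in the same groups. Mr1 followed well below, between 11.2 and 16.3 CPM per kilobase over all hearts. Tapbpl, between 5.76 and 7.41, and Cd1d1, between 2.96 and 4.33, were the lowest genes with counts.

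Among the heavy chains, Fcgrt (chromosome 7, 45092993 to 45103822) encodes the neonatal Fc receptor, which binds immunoglobulin G and albumin in acidic endosomes and returns them to the blood. It stood at 202, 201, 187 and 225 CPM in control hearts 1 to 4 and at 211, 181 and 182 CPM in transferred hearts 1 to 3. The groups overlapped, and transferred hearts 2 and 3 lay below the lowest control heart. The log2 fold change was -0.09 with a 95% interval from -0.29 to 0.11 (edgeR adjusted p = 0.736). It was -0.17 without transferred heart 1, -0.16 without both letter-prefix hearts, -0.05 without transferred heart 2, -0.06 without transferred heart 3 and -0.04 without control heart 4. Fcgrt supplied between 84.3% and 89.8% of the summed CPM per kilobase of the 4 heavy chains in every heart.

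Mr1 (chromosome 1, 155127874 to 155146814) encodes the chain that shows vitamin B metabolites from microbes to mucosal-associated invariant T cells. It stood at 39.7, 34.1, 35.9 and 28.5 CPM in control hearts 1 to 4 and at 39.1, 41.5 and 36.3 CPM in transferred hearts 1 to 3. The groups overlapped, with the lowest value in control heart 4. The log2 fold change was 0.17 with a 95% interval from -0.09 to 0.43 (edgeR adjusted p = 0.611). Without control heart 4 it was 0.09, and without control heart 1 it was 0.25.

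Cd1d1 (chromosome 3, 86995834 to 87012358) encodes the chain that shows lipids to natural killer T cells. Its values were 9.48, 8.35, 11.9 and 9.21 CPM in control hearts 1 to 4 and 8.66, 8.14 and 8.84 CPM in transferred hearts 1 to 3. Control heart 3 was the highest and transferred heart 2 the lowest, and the groups overlapped. The log2 fold change was -0.19 with a 95% interval from -0.54 to 0.16 (edgeR adjusted p = 0.684). Without control heart 3 it was -0.08. Cd1d2, a close copy of Cd1d1, had a mean of 0.707 CPM in control hearts and 0.585 CPM in transferred hearts. Neither gene had a fractional count in any heart, and whether the counting left out reads shared by the copies is not given in the sources used here.

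Azgp1 (chromosome 5, 137981521 to 137990233) encodes zinc-alpha-2-glycoprotein, a secreted class I-like protein made mainly by epithelia, liver and fat that does not need beta-2 microglobulin to fold. It had 0 counts in all 7 hearts. By heart, this allows a level of up to 0.119 to 0.183 CPM, as 3 counts over the heart's summed counts without TMM scaling. Azgp1 was therefore not tested. The fat-cell genes Cidec and Plin1 were also low, from 0.0384 to 0.129 CPM and from 0 to 0.0861 CPM in control hearts and from 0 to 0.507 CPM and from 0 to 0.235 CPM in transferred hearts. Fabp4, which heart endothelium also expresses, had 1199 ± 78.0 CPM in controls (SD, n = 4) and 1204 ± 229 CPM after transfer (SD, n = 3). Pparg, of the same list, had 28.2 ± 3.35 CPM in controls (SD, n = 4) and 27.8 ± 5.86 CPM after transfer (SD, n = 3). The 6 of 9 fat-cell markers in the table summed to 1127 to 1307 CPM in control hearts and 1073 to 1502 CPM in transferred hearts.

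Of the loading factors, Pdia3 (chromosome 2, 121413902 to 121438687) encodes ERp57, an oxidoreductase that helps many glycoproteins fold and forms part of the class I peptide-loading complex. It stood at 440, 423, 366 and 499 CPM in control hearts 1 to 4 and at 555, 446 and 464 CPM in transferred hearts 1 to 3. Transferred heart 1 exceeded every control heart and the other two lay within the control range. The log2 fold change was 0.18 with a 95% interval from -0.08 to 0.43 (edgeR adjusted p = 0.591). Without transferred heart 1 it was 0.08, without both letter-prefix hearts 0.09 and without control heart 3 it was 0.11, whereas it was 0.25 without control heart 4 and 0.24 without transferred heart 2.

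Tapbpl (chromosome 6, 125223927 to 125231860) encodes TAPBPR, a relative of tapasin that edits the peptides bound to class I molecules outside the loading complex. It stood at 15.6, 16.5, 14.4 and 14.95 CPM in control hearts 1 to 4 and at 18.1, 18.5 and 16.8 CPM in transferred hearts 1 to 3. Every transferred heart lay above every control heart, and the closest pair was transferred heart 3 and control heart 2. The log2 fold change was 0.21 with a standard error of 0.11 and a 95% interval from -0.03 to 0.45 (edgeR adjusted p = 0.485). The exact Poisson 95% interval of 1 heart's count reached 10.4% to 13.6% to its wider side for this gene, so the intervals of those hearts overlap.

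Of the 6 tested genes, 0 passed the threshold of the edgeR test, and 0 passed with DESeq2 or with limma-voom. Over all tested genes 0.235% passed (18 genes), 0.13% higher and the rest lower in transferred hearts. At an unadjusted p under 0.05 there was 1 of the 6, B2m, against 12.4% of all tested genes (7.17% higher). The groups did not overlap in 1 of the 6, Tapbpl, against 11.2% of all tested genes (6.0% higher and 5.22% lower). Among all genes the split was 10 higher and 8 lower, and with scaling by total counts it was 26 higher and 9 lower. The edgeR test called 0 genes without any 1 of control hearts 1, 2 and 4 and transferred heart 2 (658 to 831 at an unadjusted p under 0.05), 1 gene without control heart 3, and 140 without transferred heart 3.

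**Figure D2:**
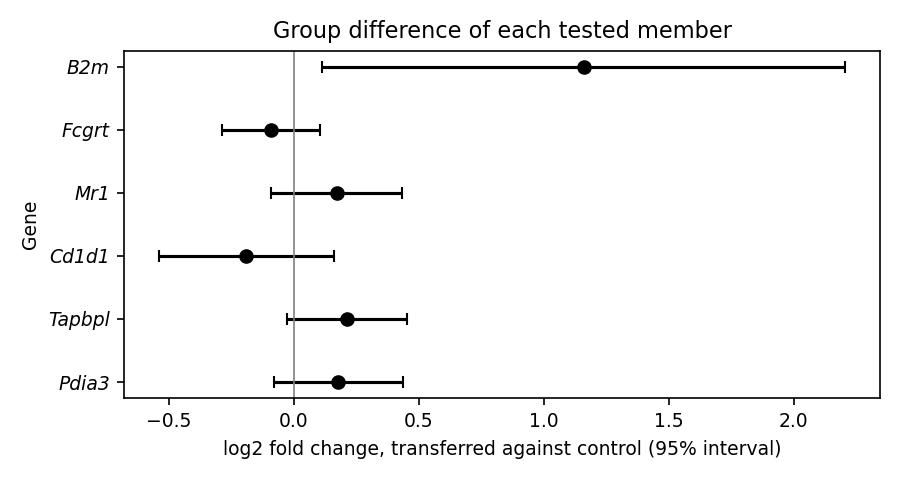
Log2 fold change of each tested gene, transferred against control, from the edgeR fit over all genes. Points are estimates and bars 95% intervals, not adjusted over genes. The interval of B2m runs from 0.11 to 2.21, and the other 5 intervals cover 0.

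B2m was then set against its partners in each heart, as the ratio of CPM per kilobase. Relative to the sum of the 4 heavy chains, the ratio was 3.07, 3.36, 3.61 and 3.62 in control hearts 1 to 4 and 13.05, 6.69 and 3.54 in transferred hearts 1 to 3. The summed heavy chains themselves stayed between 122 and 143 CPM per kilobase over all hearts. The ratio was thus high in transferred hearts 1 and 2, and in transferred heart 3 it lay within the control range.

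Relative to Fcgrt alone the ratio was 3.92 ± 0.281 (SD, n = 4) in control hearts and 15.05, 7.93 and 4.13 in transferred hearts 1 to 3. Relative to Pdia3 it was 2.82 ± 0.327 (SD, n = 4) in control hearts and 8.64, 4.85 and 2.45 in transferred hearts. Relative to Mr1 it ranged from 26.55 to 46.3 in control hearts, the highest being control heart 4, and was 118, 50.3 and 30.2 in transferred hearts. The same order of the transferred hearts held against Cd1d1 and Tapbpl. With each of the 5 partners that had counts, the groups overlapped because of transferred heart 3. No test was made of these ratios, since the genes had been put together with earlier results known.

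**Figure D3:**
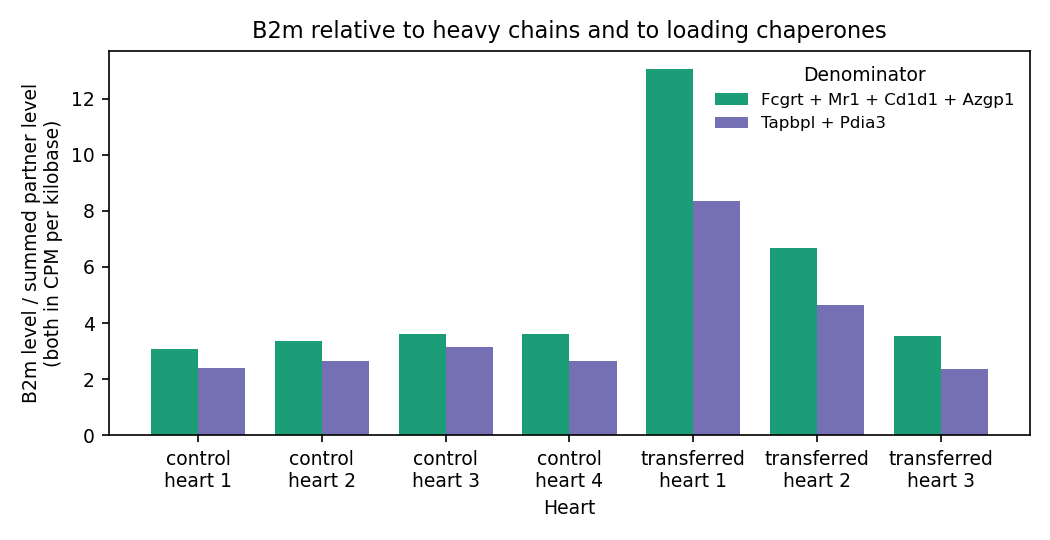
Ratio of B2m to the summed heavy chains (green) and to the summed loading factors (purple) in each heart, both in CPM per kilobase. Bars start at 0. Transferred hearts 1 and 2 stand at 13.05 and 6.69 times the summed heavy chains, and the other 5 hearts between 3.07 and 3.62.

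The other genes of the pathway were read from 5 lists. Of 15 class I-like chains, 8 were in the table and 6 were tested, and 0 of the 6 passed the threshold (0.235% of all tested genes), with a median log2 fold change of 0.04 beside -0.002 over all tested genes. Apart from the genes above, the list held Mill2, a class I-like chain of the mouse, whose log2 difference was 0.26 (edgeR adjusted p = 0.608), and Procr, the endothelial protein C receptor, with 0.23 (edgeR adjusted p = 0.645). Of the 6, Mill2 alone had groups that did not overlap (6.0% of all tested genes were apart in that direction), and only narrowly, with 10.38 CPM in the highest control heart and 10.44 CPM in the lowest transferred heart. Mill1 had no counts in any heart.

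Of 37 genes listed for peptide loading and folding in the endoplasmic reticulum, 13 were in the table and tested. The rest of the list is not covered by these values. Of the 13, 0 were past the threshold (0.235% of all tested genes), and an unadjusted p under 0.05 was reached by 0 in the edgeR fit (12.4% of all). Their log2 fold changes ran from -0.09 to 0.21 with a median of 0.07, and Tapbpl had the highest. Sec61b, a subunit of the channel through which new chains enter the endoplasmic reticulum, had 0.18 (edgeR adjusted p = 0.622), and Rpn2, a subunit of the oligosaccharyltransferase, had 0.12 (edgeR adjusted p = 0.667). Of 44 listed proteasome genes, which make the peptides for class I, 19 were in the table and tested, and the rest are not covered. Of the 19, 0 passed and 0 had an unadjusted p under 0.05 in the same fit, beside the same shares of all tested genes. Their log2 fold changes ran from -0.13 for Psmb7, a constitutive catalytic subunit, to 0.07 for Psmd4, a ubiquitin receptor of the regulatory particle. Psmd8 and Psmb2 had -0.11 and -0.06. The groups overlapped for all 19, whereas they did not for 11.2% of all tested genes.

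Of 34 listed regulators of class I genes and of interferon signalling, 13 were in the table and tested, and the rest are not covered. Of the 13, 0 were past the threshold. In the edgeR test 4 reached an unadjusted p under 0.05, all with higher means in transferred hearts, against 7.17% of all tested genes. Irf7, a transcription factor of the type I interferon response, stood between 22.6 and 25.9 CPM in control hearts and at 931, 119 and 27.3 CPM in transferred hearts 1 to 3. Its log2 fold change was 3.89 with a standard error of 1.11 (edgeR adjusted p = 0.253). The protease Usp18, which removes ISG15 from proteins and dampens the interferon receptor, stood between 6.47 and 9.84 CPM in control hearts and at 81.2, 21.2 and 7.86 CPM in transferred hearts 1 to 3. Both had the order of transferred hearts seen for B2m, and in transferred heart 3 Usp18 lay within the control range and Irf7 just above it.

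Irf5, a factor of myeloid cells, and Relb, an NF-kB subunit, differed less, with log2 fold changes of 0.61 (edgeR adjusted p = 0.178) and 0.32 (edgeR adjusted p = 0.255). In 4 of the 13 regulators, Irf5, Irf7, Relb and Nfyc, every transferred heart lay above every control heart, against 6.0% of all tested genes. Nfyc, a subunit of the factor that binds CCAAT boxes, differed by 0.11 on the log2 scale (edgeR adjusted p = 0.547). Rfx5 and Nfkb1, which act at class I promoters, had log2 fold changes of 0.09 and -0.05.

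Of 18 immune receptors, 16 were in the table and 5 were tested. Most of the list bind class I or class I-like proteins or belong to families that do, but Pilra, Pilrb1 and Cd244a are known for other ligands. The other 11, among them Cd8a and Klrk1 of T and natural killer cells, were below the filter on low counts, and 4 of these had no counts at all. Of the 5 tested genes 3 passed the threshold, all higher in transferred hearts: Pira1, Pira2 and Pirb, paired immunoglobulin-like receptors of myeloid and B cells, of which PIR-B is an inhibitory receptor for class I molecules. Over all tested genes 0.13% passed in that direction. Pirb had 8.38 to 10.9 CPM in controls and 19.3, 40.6 and 26.0 CPM in transferred hearts 1 to 3, 1.54 higher on the log2 scale with a standard error of 0.23 (edgeR adjusted p = 0.0384). Fractional counts were present in 7 of 7 hearts for Pira1 and Pirb and in 6 of 7 for Pira2. Whether reads shared by these closely related genes gave the fractions was not tested, so the genes cannot be told apart with certainty. None of the 3 passed with the identifier form as a covariate, without the 2 letter-prefix hearts, with limma-voom, or without any 1 control heart or transferred heart 2. The summed macrophage and neutrophil markers were highest in transferred heart 2, as Pirb was, and their part in these values was not tested. Pilra, an inhibitory receptor of myeloid cells, was 0.997 higher in mean on the log2 scale, with overlapping groups (edgeR adjusted p = 0.202).

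The genes whose pattern was most like that of B2m were found by Pearson's r of log2 CPM over the 7 hearts among 7003 genes with a mean of at least 1 CPM. The highest were Usp18 with an r of 0.998, Isg15 with 0.996, Sp100 with 0.993, Ifi44 with 0.992, Irf7 with 0.991, Oasl2 with 0.989, and Gbp3 and Samhd1 with 0.984 each. An r above 0.9 was reached by 86 genes. These values describe 7 libraries, of which transferred heart 1 lies far from the rest. Over the 6 other hearts the 8 genes had an r between 0.915 and 0.987 with B2m. These genes had been picked by r over all 7 hearts, so this range is no separate support for the likeness. Among the 6 hearts, transferred heart 2 lay apart in B2m, at 703 CPM beside at most 445 CPM in the others.

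Isg15, a ubiquitin-like modifier, stood between 10.6 and 13.6 CPM in control hearts and at 111, 29.3 and 9.93 CPM in transferred hearts 1 to 3. Oasl2, a member of the oligoadenylate synthetase family, stood between 16.7 and 23.8 CPM in control hearts and at 157, 45.6 and 21.9 CPM in transferred hearts. Ifi44 stood at 73.5, 26.4 and 12.8 CPM in transferred hearts 1 to 3, and Gbp3, a guanylate-binding protein, at 94.4, 35.8 and 18.1 CPM. In each of these 4 genes transferred hearts 1 and 2 were above every control heart and transferred heart 3 was within or below the control range. Sp100, a component of nuclear bodies, stood at 175, 103 and 77.8 CPM in transferred hearts 1 to 3, just above the controls in heart 3 (70.8 to 77.6 CPM). Sp100 had fractional counts in 7 of 7 hearts and Gbp3 in 4 of 7, so both are uncertain. Whether reads shared with related genes gave the fractions was not tested. Samhd1, a nucleotide hydrolase that restricts viruses, stood at 113, 87.9 and 77.6 CPM, within the control range in heart 3 (70.9 to 78.6 CPM). The log2 fold changes of the 8 genes ran from 0.33 for Samhd1 to 3.89 for Irf7, and 0 of the 8 passed the threshold of the edgeR test, with adjusted p from 0.253 to 0.353. All 8 had an unadjusted p under 0.05, but they had been picked for a pattern in which transferred hearts 1 and 2 are high.

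None of the partners was among these genes. Over the 7 hearts, r with B2m was 0.68 for Pdia3 and 0.67 for Tapbpl, at places 595 and 638 of 7003. It was 0.36 for Mr1, 0.20 for Fcgrt and -0.35 for Cd1d1. Without transferred heart 1, r was 0.20 for Pdia3, 0.63 for Tapbpl, 0.29 for Mr1, -0.27 for Fcgrt and -0.42 for Cd1d1, so that of Fcgrt changed sign.

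**Figure D4:**
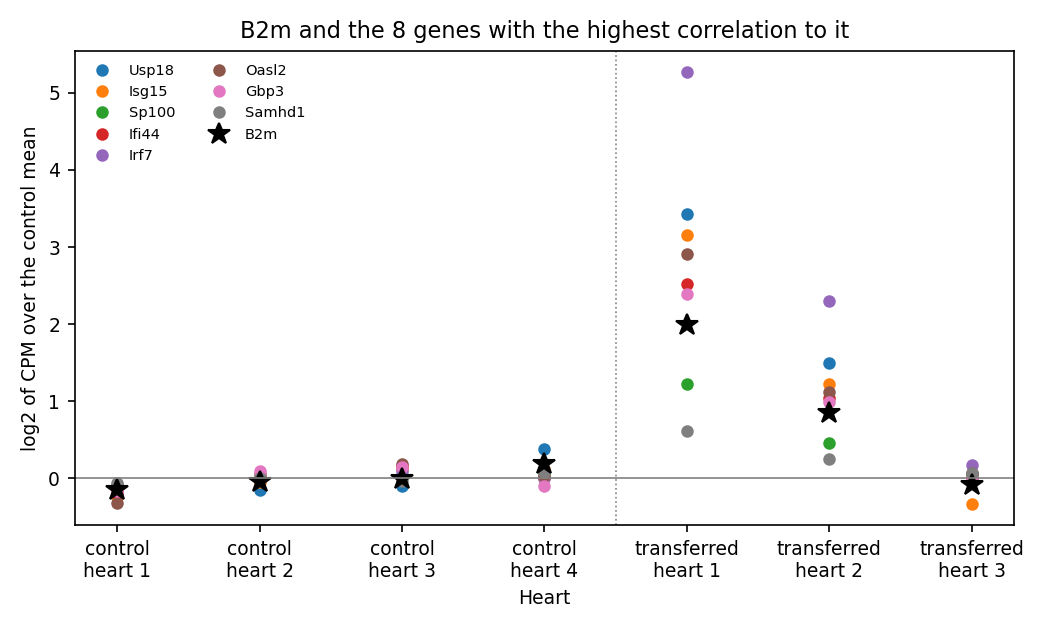
Log2 of CPM over the control mean in each heart for B2m (stars) and the 8 genes with the highest correlation to it (circles). In transferred heart 1 B2m stands at 1.99 and Irf7 highest, in transferred heart 2 B2m stands at 0.84, and in transferred heart 3 B2m, at -0.09, lies near the control level with the others.

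The promoter of Isg15 is shown for comparison with that of B2m, since Isg15 is one of the 2 of these 8 genes with the interferon response element core in the 250 bases before a start. The other is Gbp3. Of the 8 genes, 7 had a promoter window in RefSeq, and Usp18 had none. In the windows of Sp100, Ifi44, Irf7, Oasl2 and Samhd1 the core was not found. Of the 9 windows of these genes 2 held it, beside 2.98% of all windows. Each stretch is 40 bases of GRCm38.p6, at chr2:122147533-122147572 on the plus strand for B2m and chr4:156200860-156200899 on the minus strand for Isg15, and capitals mark the match nearest the start. The B2m stretch holds 1 match, and the Isg15 stretch holds 3, each overlapping its neighbour, of which only that nearest the start is in capitals.
B2m: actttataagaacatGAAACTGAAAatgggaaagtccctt
Isg15: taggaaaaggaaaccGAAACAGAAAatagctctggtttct

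In tissue RNA, more cells of a kind and more RNA per cell cannot be told apart, and cell-type markers are therefore given beside B2m. Of 14 macrophage markers, 10 were in the table, none of them at 0. Their summed level was 472 to 700.5 CPM in control hearts and 1063, 1212 and 836.5 CPM in transferred hearts 1 to 3, and 8 of the 10 did not overlap between the groups, all higher in transferred hearts, against 6.0% of all tested genes. C1qb and Mrc1 passed the threshold (edgeR adjusted p = 0.0384 for each), and C1qa had the highest level. Neither passed with the identifier form as a covariate, without the 2 letter-prefix hearts, with limma-voom, or without any 1 control heart or transferred heart 2. The sum was highest in transferred heart 2, whereas B2m was highest in transferred heart 1. Neutrophil markers, 6 of 9 in the table and S100a9 the most abundant, summed to 10.1 to 14.2 CPM in control hearts and to 14.4, 269.7 and 39.97 CPM in transferred hearts 1 to 3. The part of either cell type in the B2m values was not tested.

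Endothelial markers, 9 of 13 in the table with Kdr the most abundant, summed to 2474 to 3049 CPM in control hearts and 2638 to 3059 CPM in transferred hearts. Within that list 2 genes did not overlap between the groups, 1 higher and 1 lower (6.0% and 5.22% of all tested genes), and neither was past the threshold. Vwf, von Willebrand factor, had 90.9 to 138 CPM in control hearts and 159 to 381 CPM in transferred hearts (edgeR adjusted p = 0.1997), and Tie1, an endothelial receptor kinase, had 221 to 251 CPM and 184 to 202 CPM (edgeR adjusted p = 0.185). Cardiomyocyte markers, led by Actc1, and fibroblast markers, led by Col3a1, likewise overlapped between the groups in their sums, and the cardiomyocyte sums, from 101400 to 128700 CPM, were the highest of the marker lists. Mouse T-cell markers, 7 of 14 in the table and led by Cd28, summed to 30.0 to 38.5 CPM in control hearts and 28.5 to 36.1 CPM in transferred hearts. Cd28 alone had means of 28.6 and 26.1 CPM in these groups, so the sums are mostly that gene. Cd247, a chain of the T-cell receptor complex, had 2.21 to 4.86 CPM in control hearts and 1.28 to 2.48 CPM in transferred hearts (edgeR adjusted p = 0.278), and Cd2, below the filter on low counts, had 0 to 0.043 CPM and 0.141 to 0.247 CPM. The natural killer cell markers Ncr1 and Klrb1c were at 0 in all hearts.

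The summed counts of the analysed part of the table lay between 16402194 and 25190580 per heart and are not the depth of whole libraries. The exact Poisson 95% interval of a single heart's count was within 1.12% to 2.36% of the count for B2m and within 11.8% to 17.6% for Cd1d1. These intervals reflect counting error alone, because the reads carry no stated molecular identifiers and need not be independent molecules. B2m had fractional counts in 2 of 7 hearts, Tapbpl and Pdia3 in 1 of 7, and Fcgrt, Mr1 and Cd1d1 in none. B2m shares its locus with Patl2 on the other strand, which had 4 counts in all hearts together, and Pdia3 with Catsper2, which had 1547. Tapbpl likewise overlaps E130112N10Rik, which had 78 counts in all, and Mr1 overlaps Gm30922, which had 0. The sources used here do not say whether counting used strand.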

How the data were processed

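The members and the gene lists were chosen with earlier results of these data known. The authors deposited 1 table of estimated counts per gene, not normalized, of which 4.63% of values have a fractional part. Per the submitters' processing notes, cutadapt 2.5, STAR 2.7.2b, featureCounts 1.6.4 and DESeq2 1.22.2 were among the tools, with GRCm38.p6. No step order or counting option is given there. Whether the counts include reads of the transferred human cells was not tested. The table has 20343 usable rows, its 1 truncated last row was dropped, and it ends at position 25129815 of chromosome 8. All 20343 identifiers and start positions matched the RefSeq table of GRCm38.p6.

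Samples were grouped by the treatment in the labels, and hearts were numbered in accession order, so the numbers pair nothing. Separate animal identifiers mark the hearts, and p-values weigh the group difference against the spread between them. Counts were rounded, filtered with filterByExpr, scaled by TMM and tested with the quasi-likelihood test of edgeR 4.0.16 in R 4.3.3 with robust estimation, Benjamini-Hochberg adjustment over 7667 genes and a threshold of 0.05. Standard errors came from the F statistic. The procedure was tested on simulated data. CPM per kilobase divides by the deposited combined exon length. Log2 CPM used a prior count of 2. Alternatives were other scalings, filters, a covariate, left-out hearts, unrounded counts, no robust estimation, DESeq2 1.42.0 and limma-voom (limma 3.58.1). Named genes were the members, the 4 genes with the smallest p of each list and any past the threshold, the 8 genes most like B2m and the most abundant marker of each cell type with any past the threshold. Others (Cd1d2, Mill1, Cidec, Plin1, Pparg, Rfx5, Nfkb1, Nfyc, Vwf, Tie1, Cd247, Cd2, Pilrb1 and receptors below the filter) were named after their values were seen.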

Additional observations from a re-analysis of the deposited data

Results flagged for a closer look

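In the control group of 4, the log2 CPM of the 37 named genes was checked for a heart far from the other 3. In 3 genes a heart was marked, and chance marks about 1 in 20, here 1.85. None of the 3 is B2m or one of its 6 partners. The log2 CPM of Mill2 in control heart 2 was 2.80, with 3.37 to 3.39 for the remaining controls. The log2 CPM of Irf5 in control heart 4 was 2.61, with 2.79 to 2.82 for the rest. The log2 CPM of Pilra in control heart 2 was 1.44, with 0.92 to 0.99 for the rest.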

How the results depend on the processing

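The tested members, B2m, Fcgrt, Mr1, Cd1d1, Tapbpl and Pdia3, kept their direction in all 18 alternatives. B2m ranged from 0.42 to 1.53 on the log2 scale, and from 0.45 to 1.53 when 1 heart was left out. It was past the threshold in 1 of the 18, without transferred heart 3 (edgeR adjusted p = 0.0412, with 0.0412 to 0.624 over all alternatives), and the others were past it in none. The number of members past the threshold, 0, was between 0 and 1 when 1 heart was left out. The number of genes past the threshold, 18, became 35 with total count scaling, 81 without a filter beyond 1 count per gene, 252 under DESeq2, and 0 with the identifier covariate, without the 2 letter-prefix hearts and with limma-voom (973, 1054 and 907 at an unadjusted p under 0.05). It lay between 0 and 140 when 1 heart was left out. The 3 pathway list genes became 5 with DESeq2, 0 with the identifier covariate, without the letter-prefix hearts and with limma-voom, and 0 to 6 when 1 heart was left out, with 0 without any 1 control heart or without transferred heart 2. For these changes, the cause was not tested. Depth limits Cd1d1 and Tapbpl most, with 146 to 392.5 counts a heart.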
